A study of Mus musculus with 25 samples.

Results

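The 8 M cell marker genes Anxa5, Ubd, Stx11, Gp2, Spib, Tnfaip2, Marcksl1 and Ccl9 were followed through the mouse isolated lymphoid follicle (ILF) and the epithelium around it. They were found by gene symbol, and all 8 were among the 24089 genes of the table. The data are counts of unique molecular identifiers (UMIs, 1 for each captured RNA molecule) from laser capture microdissection (LCM), in which small regions are cut out of a tissue section and sequenced as bulk RNA. The tissue was jejunum of C57BL/6 male mice aged 3 months, fed regular chow, with no treatment and no transgene in any group. The 25 libraries came from 5 segments with 5 repeats each: the top (FAET) and bottom (FAEB) of the follicle-associated epithelium (FAE), the bottom of a neighbouring villus (VB), and the bottom (ILFB) and top (ILFT) of the follicle itself. Repeats 1 and 2 came from mouse 1 and repeats 3 to 5 from mouse 2, and each library pooled several follicles, so a p-value here reflects above all how repeated dissections of 2 animals vary.

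M cells are rare epithelial cells of the FAE that carry particles and microbes from the gut lumen to the immune cells below. They arise when RANKL from stromal cells of the follicle acts on its receptor RANK in the epithelium and switches on NF-kB signalling and then the transcription factor Spi-B. Mature M cells carry the bacterial receptor GP2 on their luminal face. Because each library is a mix of cells, fewer M cells and less M cell RNA per cell cannot be told apart in these data.

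The libraries held between 21529 and 213736 UMIs, and FAET was the shallowest segment, with a median of 48759. In 6 libraries the marker genes went against the label, with more pan-immune than pan-epithelial UMIs in an epithelial segment or the reverse in the follicle: FAET repeat 1, VB repeat 5, ILFB repeat 5 and ILFT repeats 1, 3 and 4. The 13 other epithelial libraries had 23.2 to 107.2 UMIs of 18 pan-epithelial genes per 10,000 of all UMIs of a library and 0.46 to 8.82 of 18 pan-immune genes. Of the 2 epithelial libraries against their label, FAET repeat 1 stood at 15.2 for the pan-epithelial genes and 38.2 for the pan-immune genes, and VB repeat 5 at 3.36 and 67.3. The 6 other ILF libraries had 1.03 to 15.5 pan-epithelial and 33.4 to 67.1 pan-immune UMIs per 10,000, against 61.4 to 96.2 and 3.56 to 26.3 in the 4 ILF libraries against their label. The 6 libraries were kept, and for Ubd, Ccl9, Spib, Anxa5, Tnfaip2, Stx11 and Clu values without them are also given.

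The members gave 1440 UMIs in all, and 951 of them (66.0%) were Ubd. Their sums were 228 UMIs in FAET, 515 in FAEB, 73 in VB, 349 in ILFB and 275 in ILFT. Ubd had UMIs in 25 of 25 libraries and Anxa5 in 19, while Marcksl1 had them in 13, Spib in 12, Tnfaip2 in 9, Ccl9 in 8, Stx11 in 5 and Gp2 in 2. The levels of single genes are UMIs per 10,000 of the library's protein-coding UMIs, without mitochondrial genes and genes of 5% or more of a library, while the shares of marker lists (pan-epithelial, pan-immune and B cell) are per 10,000 of all its UMIs. A member entered the edgeR fit if 3 or more libraries held 3 or more of its UMIs, which left 6 of 8, without Gp2 and Ccl9.

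Sequence is shown for the members the results turn on. Anxa5 was the M cell gene that the study imaged by single-molecule FISH, a method that makes single transcripts visible with short labelled DNA probes. All 36 of its probes, each 20 bases long, matched the 1731-base Anxa5 transcript on chromosome 3 (GRCm38, minus strand), 24 in the coding sequence and 12 in the 3′ UTR. One probe from exon 6, one from exon 12 and one from the 3′ UTR in exon 13 are given, with their positions chr3:36460479-36460498, chr3:36450400-36450419 and chr3:36449268-36449287. The letters are those of the probes, which are the reverse complement of the transcript at these positions.
Anxa5 exon 6: caggtgtccttgaagcaata
Anxa5 exon 12: actctgatgagggtgtgatc
Anxa5 exon 13: ggcacagaatgcaagcaagt

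Ubd and Ccl9 are shown by the 120 bases before their start, because both windows held an NF-kB motif. Their pooled FAET to VB ratios were also the highest among members with at least 20 UMIs in FAET. That floor left out Tnfaip2 (19.3-fold, 11 UMIs in FAET) and Marcksl1 (11.4-fold, 13 UMIs), whose ratios were above that of Ubd (7.07-fold). Since the genes were picked partly for the motif, its presence says nothing on a link with FAET levels. The sequences are from RefSeq (GRCm38.p6), Ubd at chr17:37193772-37193891 on the plus strand and Ccl9 at chr11:83578637-83578756 on the minus strand. Capitals mark matches to GGGNNTTTCC, the kB motif, on either strand.
Ubd upstream: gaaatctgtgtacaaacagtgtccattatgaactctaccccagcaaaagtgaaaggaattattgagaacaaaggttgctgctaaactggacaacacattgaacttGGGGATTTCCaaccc
Ccl9 upstream: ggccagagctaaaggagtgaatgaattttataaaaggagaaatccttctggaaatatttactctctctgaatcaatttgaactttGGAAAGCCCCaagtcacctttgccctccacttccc
The motif began at position -15 from the start of Ubd and at -35 from that of Ccl9, where it lay on the other strand. In windows of 300 bases around the start, 1.63% of 32851 mouse promoters held it, as did these 2 members. GAGGAA, the core bound by Ets factors of the PU.1 and Spi-B type, was in 28.3% of the promoters and in those of Gp2 and Marcksl1. GAAANNGAAA, the interferon-stimulated response element, was in 3.44% and in no member. A match is a description of the letters and no evidence of binding.

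**Figure D1:**
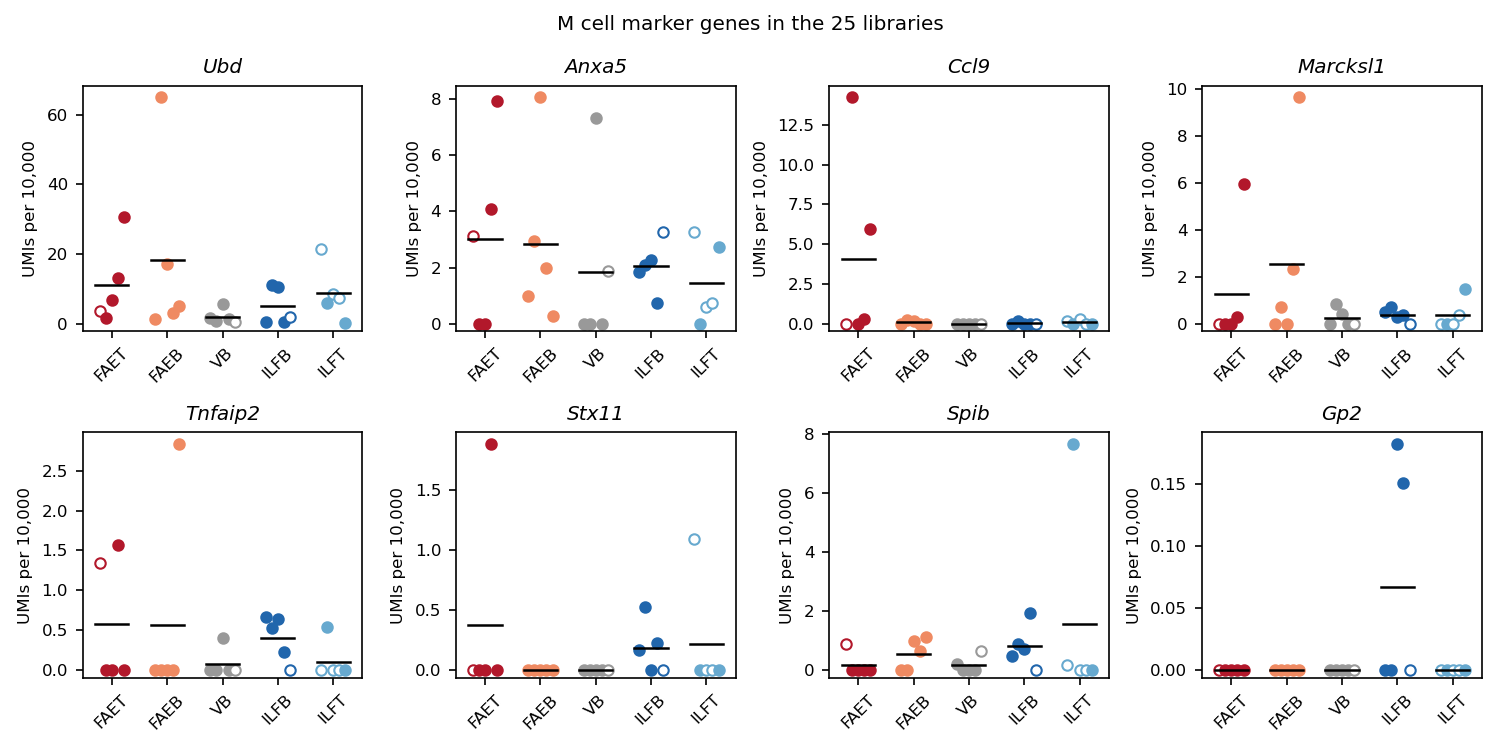
UMIs per 10,000 (vertical axis) of the 8 members in each library of FAET, FAEB, VB, ILFB and ILFT; each point is a library, the line is the mean of the 5 repeats, and open circles are the 6 libraries against their label. Ubd reached 65.0 in 1 FAEB library, Ccl9 was high in 2 FAET libraries, and Gp2 was detected only in 2 ILFB libraries.

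Ubd encodes FAT10, a ubiquitin-like tag that sends proteins to the proteasome and is induced by interferon gamma and TNF. In the order of repeats 1 to 5, Ubd had 16, 1, 8, 42 and 62 UMIs in FAET, 4, 266, 88, 9 and 18 in FAEB and 8, 1, 14, 6 and 3 in VB. In the follicle it had 4, 63, 116, 9 and 5 UMIs in ILFB and 119, 11, 57, 20 and 1 in ILFT. The level was 11.2 ± 11.8 per 10,000 in FAET, 18.3 ± 26.8 in FAEB, 2.01 ± 2.12 in VB, 5.001 ± 5.33 in ILFB and 8.76 ± 7.84 in ILFT (SD over 5 libraries). By the mean the order was FAEB, FAET, ILFT, ILFB and VB, with SDs close to or above the means and with neighbours in that order overlapping. Without repeat 2 the means put FAET first, at 13.6, then ILFT at 9.44, FAEB at 6.68, ILFB at 3.49 and VB at 2.30.

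Ubd was higher in FAET than in VB in 5 of 5 repeats, by 0.754 to 30.3 UMIs per 10,000. The lowest difference, in repeat 2, came from 1 UMI in each library and reflects their depth. Repeats 1 and 5 each include a library against its label (FAET repeat 1 and VB repeat 5), and the largest difference was in repeat 5. The tests below on all libraries share these limits. The exact permutation p of this difference was 0.0333 (2-sided, segments exchanged within mice, where 120 arrangements allow no p under 0.0167), and the p adjusted over all 9956 genes was 1. With segments exchanged within each repeat, which pairs the libraries of 1 dissection, the exact p was 0.0625, the smallest that 5 pairs allow. In the edgeR fit Ubd had a log2 fold change of 2.34 (SE 1.07, unadjusted p = 0.0288, adjusted p = 0.369) for FAET against VB, and without replicate 5 it was 1.32 (adjusted p = 0.603).

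The FAE bottom held the largest Ubd count, and 1 library supplied most of it: repeat 2 had 266 of the 385 UMIs. The log2 fold change of FAEB against VB was 3.30 (SE 1.14, edgeR adjusted p = 0.455), and Ubd was higher in 4 of 5 repeats. Without replicate 2 it was 1.46 (adjusted p = 0.823). The mean level without that repeat was 6.68 ± 7.24 per 10,000 in FAEB and 2.30 ± 2.32 in VB (SD, n = 4 each). FAET and FAEB overlapped, with a log2 fold change of -0.96 (SE 1.10, adjusted p = 0.758). The sign of this difference turned with the replicate block (0.30) and without replicate 2 (0.75) or 3 (0.04).

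Counted over pooled UMIs, which treats each segment as 1 library and covers counting error only, Ubd was 7.07-fold higher in FAET than in VB (95% interval 4.77 to 10.8) and 12.9-fold higher in FAEB than in VB (9.002 to 19.2). These intervals leave out the spread between repeats, which the SDs above show to be larger than the counting error. FAET had 1.12-fold the pooled level of ILFT (0.892 to 1.40), a ratio that rested on libraries against their label, which are 1 of the 5 in FAET and 3 of the 5 in ILFT. Without them it was 7.85-fold (4.32 to 15.6), from 113 UMIs in 4 FAET libraries and 12 UMIs in 2 ILFT libraries, 11 of them in 1 library, and the level was 13.1 ± 12.7 per 10,000 in FAET and 3.14 ± 4.09 in ILFT (SD). The edgeR log2 fold change of FAET against ILFT was then 2.68 (SE 1.46, adjusted p = 0.296). Pooled FAET against VB was 7.01-fold and FAEB against VB 8.94-fold without them. These pooled ratios without the 6 libraries were chosen after seeing the data. The highest ILFT value, 21.6 per 10,000, was in repeat 1, one of the libraries against their label, with 96.2 pan-epithelial UMIs per 10,000.

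Ccl9 is a chemokine that in mice draws dendritic cells toward the dome of Peyer's patches. It had 0, 9, 0, 1 and 12 UMIs in FAET, 0, 1, 1, 0 and 0 in FAEB, none in VB, 0, 1, 0, 0 and 0 in ILFB and 1, 0, 2, 0 and 0 in ILFT. FAET repeats 2 and 5 thus held 21 of all 28 UMIs, at 14.2 and 5.95 per 10,000, and repeat 2 was the shallowest library. Pooled over the segment, FAET had at least 12.9-fold more than VB, taking VB at the limit of 3 UMIs that a count of 0 allows, 17.96-fold more than FAEB (95% interval 4.41 to 158) and 13.2-fold more than ILFT (3.98 to 69.1), all for counting error only. The 3 ILFT UMIs were all in repeats 1 and 3, which went against their label, and without the 6 libraries ILFT had 0 UMIs in 2 libraries, with FAET at least 6.11-fold higher. FAET and VB overlapped at 0, and Ccl9 was higher in FAET in 3 of 5 repeats and tied in 2. The exact permutation p was 0.2 (adjusted p = 1), run without the filter on low counts, an alternative chosen after seeing that this gene failed the filter.

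Gp2 is the GPI-anchored receptor for FimH-bearing bacteria on the face of mature M cells. It had no UMI in any of the 15 epithelial libraries, which allows a level of up to 0.0596 per 10,000 over them. Its 4 UMIs were 2 each in ILFB repeats 3 and 4, at 0.182 and 0.150 per 10,000, and those libraries had 53.3 and 67.1 pan-immune UMIs per 10,000. Over the 5 FAET libraries alone the limit was 0.261 per 10,000, above both ILFB values. Gp2 was therefore not detectable in the epithelial segments at this depth, and the depth of FAET cannot show whether its level was lower there than in ILFB.

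Spib encodes Spi-B, an Ets transcription factor that M cells need to mature, and B cells and plasmacytoid dendritic cells make it too. It had 4, 0, 0, 0 and 0 UMIs in FAET, 0, 0, 5, 2 and 4 in FAEB and 1, 0, 0, 0 and 5 in VB. It had 3, 5, 8, 26 and 0 UMIs in ILFB and 1, 14, 0, 0 and 0 in ILFT. The mean was 0.305 ± 0.431 per 10,000 over the 15 epithelial libraries and 1.19 ± 2.36 over the 10 ILF libraries (SD). The log2 fold change of epithelium against ILF was -1.60 (SE 0.95, edgeR adjusted p = 0.348), and the groups overlapped.

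Spib was the 1 member that passed the test in an alternative fit, and it did so where many genes passed. Without the 6 libraries against their label, 1 of 6 members was called for epithelium against ILF, where 17.3% of 8738 genes were called, and with the replicate block added 1 of 6, where 9.25% were called, so the count of members stood near the share of all genes. For Spib the log2 fold change was -4.20 (SE 1.17, edgeR adjusted p = 0.00562) without the 6 libraries, and it was -3.94 (adjusted p = 0.0352) with the block. In those 19 libraries Spib had 12 UMIs in 13 epithelial libraries, with UMIs in 4 of them, and 56 UMIs in 6 ILF libraries, with UMIs in 5. The 2 epithelial libraries against their label had 9 UMIs and the 4 ILF ones 1 UMI. Without replicate 2, which removes the ILFT library with 14 UMIs, the sign turned (0.34, adjusted p = 0.921). A list of 15 B cell genes moved with these libraries. It had 6.97 to 35.0 UMIs per 10,000 in the 13 epithelial libraries and 49.4 to 127.4 in the 6 ILF libraries. Its largest counts were those of Cd74 (5461 UMIs in 25 libraries) and H2-Aa (3803 in 24), genes of MHC class II presentation. Cd79b had 203 UMIs in 9 libraries and Ms4a1 163 in 5, so the share does not stand for B cells alone. The part of B cells in the Spib difference was not tested.

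**Figure D2:**
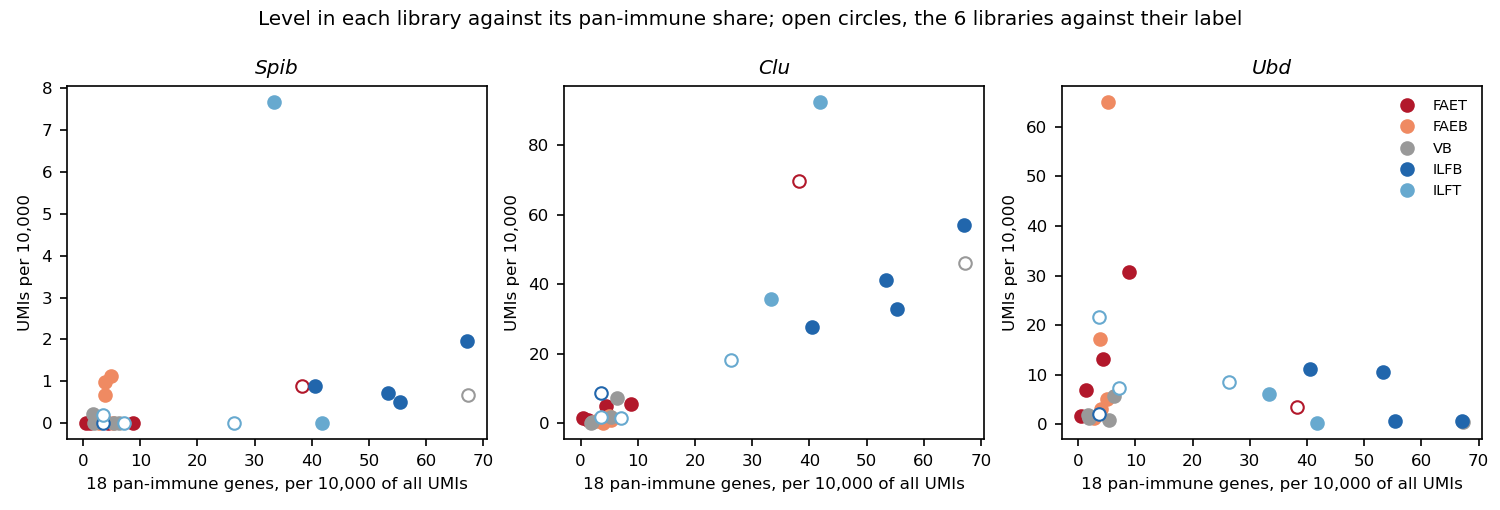
UMIs per 10,000 of Spib, Clu and Ubd (vertical axes) against the pan-immune share of each library (18 genes, per 10,000 of all UMIs, horizontal axis); each point is a library coloured by segment, and open circles are the 6 libraries against their label. Clu was high where the immune share was high, while the highest Ubd value, 65.0, stood in a library with 5.26 pan-immune UMIs per 10,000.

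Anxa5 encodes annexin A5, which binds phosphatidylserine on membranes when calcium is present. It had 14, 0, 0, 13 and 16 UMIs in FAET, 3, 12, 41, 6 and 1 in FAEB and 0, 0, 18, 0 and 14 in VB. The 2 epithelial libraries against their label, FAET repeat 1 and VB repeat 5, held 14 UMIs each. The follicle had 11, 12, 25, 10 and 8 UMIs in ILFB and 18, 0, 4, 2 and 11 in ILFT. Levels were 3.03 ± 3.30 per 10,000 in FAET, 2.85 ± 3.07 in FAEB, 1.83 ± 3.16 in VB, 2.05 ± 0.91 in ILFB and 1.47 ± 1.44 in ILFT (SD over 5 libraries). All segments overlapped. The order by the mean was FAET, FAEB, ILFB, VB and ILFT, and no neighbours differed beyond their spread. Repeat 3 weighed on this order: without it the means were 3.78 in FAET, 1.99 in ILFB, 1.68 in ILFT, 1.55 in FAEB and 0.466 in VB.

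For FAET against VB the Anxa5 log2 fold change was 0.92 (SE 1.16, edgeR adjusted p = 0.823), and FAET was higher in 3 of 5 repeats, lower in 1 and tied in 1. Single repeats moved this value, to 2.52 (adjusted p = 0.664) without replicate 3 and to 0.38 (adjusted p = 0.952) without replicate 1. Without the 6 libraries against their label the log2 fold change was 0.71 (SE 1.16, edgeR adjusted p = 0.834). Anxa5 then had 29 UMIs in 2 of 4 FAET libraries and 18 UMIs in 1 of 4 VB libraries. By the mean level the difference turned sign without replicate 5, at 1.80 per 10,000 in FAET and 1.82 in VB. FAEB against VB gave 1.12 (SE 1.17, adjusted p = 0.962). FAET against FAEB gave -0.20 (SE 1.13, adjusted p = 1), against the direction of the means above, and scaling by the study's sum gave 0.12, so no direction holds for this pair. Across the 3 epithelial segments the exact permutation p of the Kruskal-Wallis statistic was 0.441 (adjusted p = 1, n = 5 each).

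Marcksl1, of the MARCKS family of actin-binding membrane proteins, had 0, 0, 0, 1 and 12 UMIs in FAET, 0, 3, 0, 7 and 34 in FAEB and 0, 1, 1, 0 and 0 in VB, with 3, 4, 3, 5 and 0 in ILFB and 0, 0, 0, 1 and 6 in ILFT. Repeat 5 supplied 52 of all 81 UMIs (64.2%), and it was the highest repeat in FAET, FAEB and ILFT. The log2 fold change of FAEB against VB was 3.30 (SE 1.64, edgeR adjusted p = 0.540), while it was 1.97 (adjusted p = 0.995) with the replicate block and 1.77 (adjusted p = 0.858) without replicate 5.

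Tnfaip2, also called M-Sec, helps cells form long membrane tubes and is induced by TNF. It had 6, 0, 0, 5 and 0 UMIs in FAET, 0, 0, 0, 0 and 10 in FAEB, 0, 0, 1, 0 and 0 in VB, 4, 3, 7, 3 and 0 in ILFB and 0, 1, 0, 0 and 0 in ILFT. It was spread most evenly in ILFB, with UMIs in 4 of 5 libraries. The log2 fold change was 2.86 (SE 1.64, adjusted p = 0.449) for FAET against VB and 2.86 (SE 1.60, adjusted p = 0.402) for FAET against ILFT in edgeR. Of the FAET libraries with UMIs, repeat 1 was one of those against their label, and without the 6 libraries FAET against VB was 1.83 (adjusted p = 0.624) and FAET against ILFT 0.59 (adjusted p = 1). Leaving out replicate 3, which holds the 1 UMI of VB, gave 4.70 (adjusted p = 0.654) for FAET against VB, and leaving out replicate 4 gave 1.91 (adjusted p = 0.766).

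Stx11 encodes syntaxin 11, a SNARE protein that drives vesicle fusion and is known from cytotoxic lymphocytes. It had 0, 0, 0, 6 and 0 UMIs in FAET and none in FAEB or VB, 1, 3, 0, 3 and 0 in ILFB and 6, 0, 0, 0 and 0 in ILFT. All 6 FAET UMIs were thus in 1 library. The 6 ILFT UMIs were all in repeat 1, which went against its label, and without the 6 libraries against their label ILFT had 0 UMIs in 2 libraries. The ratio of FAET to VB was at least 3.51-fold with VB at the limit of 3 UMIs, for counting error only.

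Across the comparisons, none of the 6 tested members had an edgeR adjusted p under 0.05. For FAET against VB it was 0 of 6 (2 at an unadjusted p under 0.05), where 0.01% of the 9956 genes were called and 12.5% had an unadjusted p under 0.05. For FAET against FAEB it was 0 of 6 (1 unadjusted), with 0% of genes called (1424 genes or 14.3% unadjusted), and for FAEB against VB 0 of 6 (2 unadjusted), with 0.0201% called (8.96% unadjusted). For FAET against ILFT it was 0 of 6 (0 unadjusted), with 0% called (1377 genes or 13.8% unadjusted). ILFB against ILFT gave 0 of 6 (0 unadjusted), with 0.0904% called (14.3% unadjusted). Epithelium against ILF gave 0 of 6 (0 unadjusted), with 3.03% called (1896 genes unadjusted). Tested over all 5 segments, 0 of 6 members (1 unadjusted) were called, against 1.79% of genes (22.2% unadjusted). DESeq2 and limma-voom called 0 members in the 6 comparisons. Of all 9956 genes, DESeq2 called 2 and limma-voom 0 for FAET against VB, 4 and 0 for FAET against FAEB, and 2 and 0 for FAEB against VB. They called 1 and 0 for FAET against ILFT, 0 and 6 for ILFB against ILFT, and 0 and 33 for epithelium against ILF. The 0 members called were thus near the share of all genes.

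The fitted folds of FAET against VB were above 0 for 5 of 6 tested members, with a median log2 of 2.26, while all genes had a median of -0.56 and 35.4% above 0. For FAEB against VB 5 of 6 were above 0, with a median of 1.85 against -0.03 for all genes. For FAET against FAEB 2 of 6 were above 0, with a median of -0.58 against -0.48. Epithelium against ILF gave 4 of 6 above 0, with a median of 0.14 against -0.48. These comparisons share libraries, and members that passed the filter did so through the segments where they had UMIs, so the counts are a description. Scaling by the study's sum moved the all-gene median of FAET against VB to -0.29, and that of FAET against FAEB to -0.25.

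**Figure D3:**
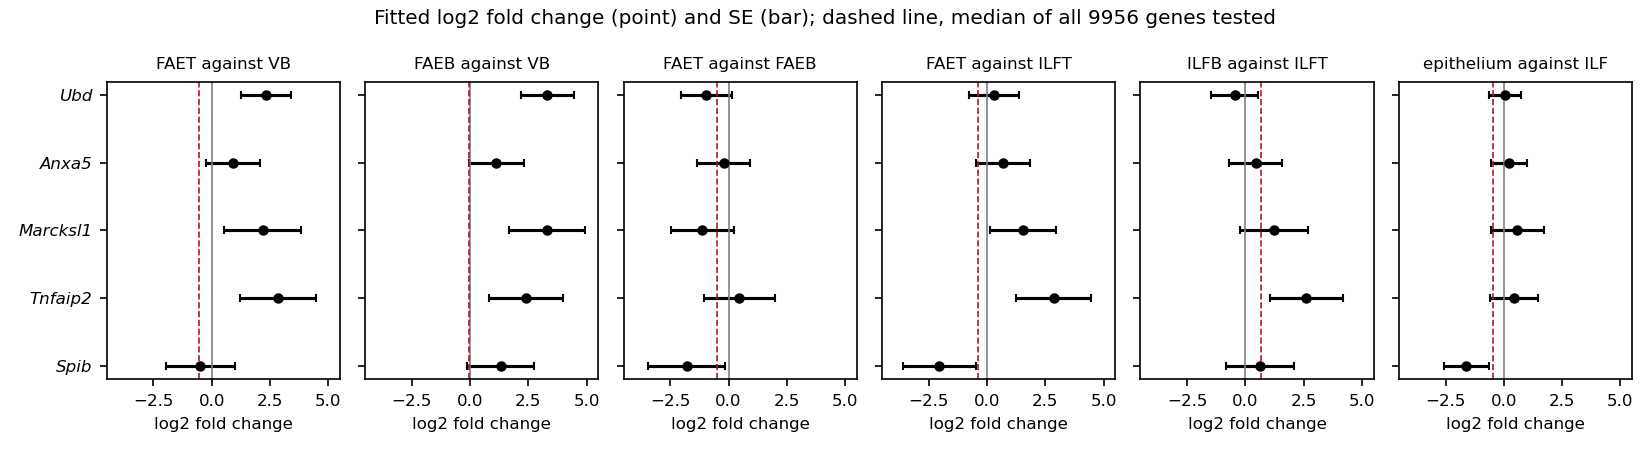
Fitted log2 fold change (points) with its SE (bars) of the 5 members with UMIs in at least 9 libraries, in 6 comparisons; the dashed line is the median of all 9956 genes tested. Ubd, Marcksl1 and Tnfaip2 lie between 2.18 and 3.30 in both FAE segments against VB with bars of 1.07 to 1.65, and Spib lies at -1.60 in epithelium against ILF.

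Of the 33 other genes of the study's M cell list, 28 were tested, and 1 was called in any comparison between segments. The call was for epithelium against ILF, where 3.03% of all 9956 genes were called, so 1 of 28 stood near the share of all genes. The gene called was Clu, which encodes the secreted chaperone clusterin and is also made by follicular dendritic cells. It was lower in epithelium than in ILF, with a log2 fold change of -2.52 (SE 0.61, edgeR adjusted p = 0.0100). Clu had 312, 1, 1, 16 and 11 UMIs in FAET, 2, 4, 6, 0 and 7 in FAEB, 0, 2, 18, 1 and 347 in VB, 198, 158, 452, 759 and 21 in ILFB and 10, 65, 121, 4 and 372 in ILFT. The 2 high epithelial libraries, FAET repeat 1 and VB repeat 5, are the 2 whose markers went against their label. Without the 6 libraries the Clu log2 fold change was -5.15 (SE 0.64, edgeR adjusted p = 9.43e-12), with 2.07 ± 2.33 UMIs per 10,000 in 13 epithelial libraries and 47.8 ± 24.1 in 6 ILF libraries (SD), which did not overlap. On all libraries Clu missed the threshold without replicate 3 (-2.35, adjusted p = 0.0917) and without replicate 4 (-2.17, adjusted p = 0.149) in edgeR, and in DESeq2 (-2.66, adjusted p = 0.0923). Without the 6 libraries, 9 of the 25 genes then tested were called between epithelium and ILF, where 17.3% of 8738 genes were called. On all libraries DESeq2 called 0 of the 28, as it called 0 of all 9956 genes, and limma-voom called 2, of 33 over all genes. In edgeR 0 were called without replicate 3, with 27 of 8950 genes called, and 0 without replicate 4, with 0 of 8686.

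The other genes with the smallest unadjusted p over the 5 segments did not pass. Mfge8, a bridge to apoptotic cells that follicular dendritic cells also secrete, had a log2 fold change of -1.81 (edgeR adjusted p = 0.0587) for epithelium against ILF. Of its UMIs, FAET repeat 1 held 284 of 331 in FAET and VB repeat 5 held 276 of 304 in VB, both libraries against their label. Il4i1, an amino acid oxidase of antigen-presenting cells, had a log2 fold change of -2.45 (edgeR adjusted p = 0.156) for epithelium against ILF. Vcam1, an adhesion molecule, had 7 UMIs in FAET, 1 each in FAEB and VB, 42 in ILFB and 0 in ILFT. Ncf4, an NADPH oxidase subunit of phagocytes, had 13 UMIs in FAET, 13 in VB, 53 in ILFB and 3 in ILFT, and those of FAET and VB were all in FAET repeat 1 and VB repeat 5, the libraries against their label.

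Ccl20, the chemokine that FAE makes to attract CCR6-bearing cells, had 0, 0, 0, 53 and 0 UMIs in FAET, 1, 5, 6, 19 and 0 in FAEB and none in VB. FAEB thus had it in 4 of 5 libraries and FAET in 1. In the follicle Ccl20 had 0, 3, 20, 0 and 2 UMIs in ILFB and 36, 0, 0, 5 and 0 in ILFT. All of its ILFT UMIs were in repeats 1 and 4, which went against their label, as did ILFB repeat 5. In edgeR the adjusted p was 0.322 for FAET against VB and 0.455 for FAEB against VB. Over the 28 genes, 22 had a log2 fold change above 0 for FAET against VB, with a median of 0.93 against -0.56 for all genes, and 9 were above 0 for epithelium against ILF, with a median of -0.40 against -0.48. A list of endothelial and stromal genes had a higher median for FAET against VB, 1.42, with 5 of 7 above 0. The lists of epithelial, enterocyte and immune cell genes had medians from -1.80 to 0.21.

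The induction genes were a list of 14 from RANKL and RANK through the NF-kB kinases to transcription factors, of which 9 were tested and 0 called in any comparison. The 6 with the smallest unadjusted p over the 5 segments were Rela, Chuk, Ikbkb, Map3k14, Traf6 and Relb, with adjusted p from 0.264 to 0.547 in edgeR. Relb, the partner subunit of the noncanonical NF-kB pathway, had 6, 0, 0, 10 and 8 UMIs in FAET, 5, 8, 3, 7 and 2 in FAEB, 1, 0, 0, 6 and 10 in VB, 17, 17, 21, 18 and 7 in ILFB and 24, 18, 0, 12 and 27 in ILFT. Its log2 fold change of epithelium against ILF was -1.46 (SE 0.75, adjusted p = 0.264).

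**Figure D4:**
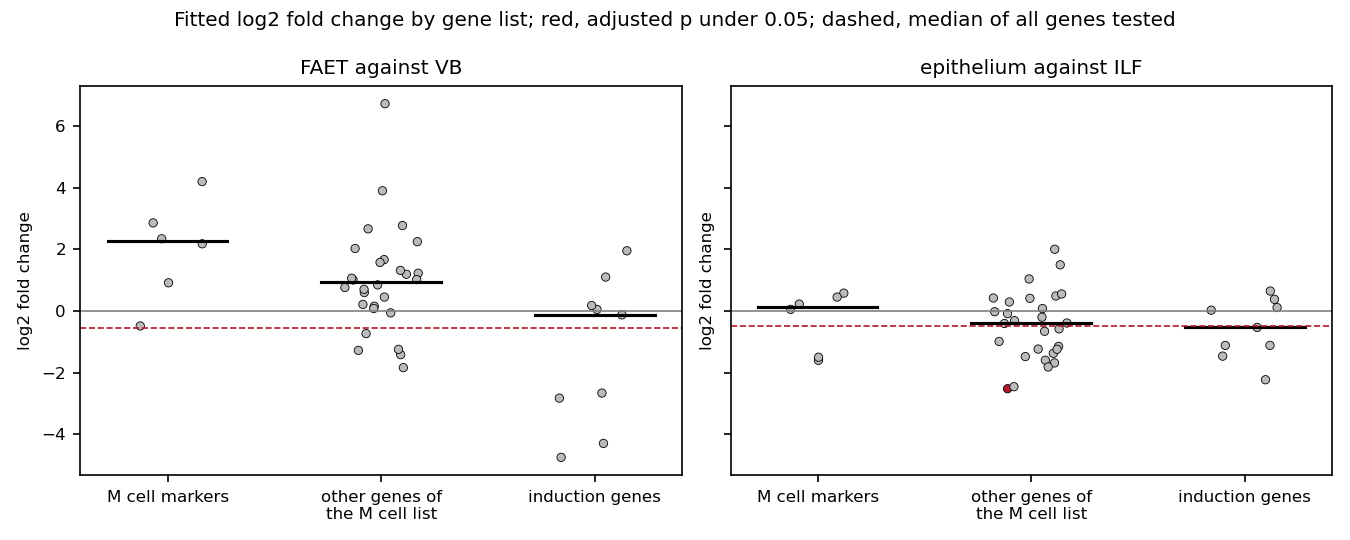
Fitted log2 fold change (vertical axis) of each tested gene of the members, the other genes of the M cell list and the induction genes, for FAET against VB (left) and epithelium against ILF (right); black lines are list medians, the dashed line is the median of all genes tested, and red marks an adjusted p under 0.05. The medians for FAET against VB are 2.26, 0.93 and -0.13, and the 1 red point is Clu.

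The genes most like each member were taken by Pearson r of log2 normalized counts over the 25 libraries, as a description, since libraries share depth and origin. For Ubd they were H2-M2 (r = 0.756), a nonclassical MHC class I gene that is also on the study's M cell list, Clec2e (0.747), a C-type lectin, and Apoa4 (0.714), an enterocyte apolipoprotein. H2-M2 had 2, 2, 1, 18 and 12 UMIs in FAET, 2, 38, 6, 10 and 6 in FAEB and 3, 0, 12, 1 and 9 in VB. Its largest count, like that of Ubd, was in FAEB repeat 2. The first-ranked genes of the other members were Morf4l1 for Anxa5 (0.756), Frmd4b for Spib (0.799), Rgs22 for Tnfaip2 (0.859) and 5430416N02Rik for Marcksl1 (0.684). Between members the highest r were 0.486 for Spib with Tnfaip2 and 0.436 for Anxa5 with Ubd.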

How the data were processed

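The deposited table holds raw UMI counts per gene, not normalized, made by the authors with zUMIs and STAR (versions not given in the sources used here) on GRCm38 with Ensembl release 84, after bcl2fastq 2.15.0.4. The labels call each library SCRBseq, while their extraction text names mcSCRB-seq for bulk samples and a SMART-seq kit for LCM, and the values are UMI counts. Groups came from the labels. The 9956 of 24089 genes that reached 3 UMIs in 3 or more libraries were fitted with edgeR 4.0.16 (R 4.3.3), TMM factors, terms for mouse and segment, and Benjamini-Hochberg adjustment over all genes. Fractions of UMIs were tested by exact permutation within mice. The replicate block treats the libraries of 1 repeat as paired. Deviations from the segment means showed little likeness within repeats. Their median r was 0.02 over 50 pairs of 1 repeat (-0.285 to 0.332). It was -0.003 over 80 pairs of different repeats of 1 mouse and -0.007 over 120 pairs of different mice. Alternatives were RLE, the study's sum, 2 other filters, DESeq2 1.42.0, limma-voom 3.58.1, no mouse term, the replicate block, each repeat left out, the 6 libraries left out, and libraries of the compared segments alone. The most alike pair of libraries still differed, with a chi-square of 5.87 per degree of freedom. Intervals and limits cover counting error only, and 1440 UMIs over 8 genes limit the precision. The scripts were tested on simulated data. Genes were named by rule: each member, genes of the 2 other M cell lists that were called, otherwise the 6 with the smallest unadjusted p, and the 3 genes most like a member that had 30 or more UMIs and was detected in 8 or more libraries. The members and lists were chosen with earlier results of these data known.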

Additional observations from a re-analysis of the deposited data

Results flagged for a closer look

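Over the 33 groups of 5 libraries in which a member had UMIs, 14 single libraries stood far above the other 4 of their segment; chance alone gives about 1 in 20 groups, and counts near 0 give such gaps easily. The values are UMIs per 10,000. Ubd was at 65.0 in FAEB repeat 2 (nearest other 17.3) and 5.68 in VB repeat 3. Anxa5 was at 7.30 in VB repeat 3, so both genes were highest among VB libraries in the same repeat. Marcksl1 was at 9.64 in FAEB, 5.95 in FAET and 1.49 in ILFT, each time in repeat 5. Spib was at 7.67 in ILFT repeat 2 and 0.896 in FAET repeat 1, with 4 UMIs in that FAET library. Tnfaip2 was at 2.83 in FAEB repeat 5, at 0.548 in ILFT repeat 2 and at 0.405 in VB repeat 3, the last 2 from 1 UMI each. Stx11 was at 1.88 in FAET repeat 4 and 1.09 in ILFT repeat 1, and Ccl9 was at 0.175 in ILFB repeat 2, from 1 UMI.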

How the results depend on the processing

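Of 95 counts of called members from alternative model fits, each over 2 to 8 members tested, 93 stayed at 0 and 2 rose to 1: for epithelium against ILF, 1 of 6 members (Spib) was called without the 6 libraries against their label, where 17.3% of all genes were called, and 1 of 6 with the replicate block as well, where 9.25% were. The replicate block on all 25 libraries called 0 members. The 19 counts from permutation tests were 0 too but say nothing on stability, since the smallest p of a segment pair was 0.00794 to 0.125 and a call over all genes was hardly possible. The Spib log2 fold change was -1.60 with all libraries, -4.20 without the 6 and -3.94 without the 6 and with the replicate block, and it ranged from -2.44 to 0.34 when a repeat was left out, turning sign without replicate 2. Of the members' folds against VB, 5 that were above 0 in the main fit were picked for this check, and the others are not listed here. The 5 kept their sign under every alternative fit run on them, with adjusted p from 0.291 to 1: Ubd 1.32 to 3.62 for FAET and 1.46 to 3.79 for FAEB, Anxa5 0.38 to 2.52 and Tnfaip2 1.21 to 4.70 for FAET, and Marcksl1 1.06 to 4.40 for FAEB. The fits share most of their libraries, and by the mean level Anxa5 in FAET against VB did turn sign without replicate 5. Ubd in FAET against FAEB turned sign with the replicate block (0.30, and 0.43 without the 6 libraries) and without replicate 2 (0.75) or 3 (0.04). The cause of these changes was not tested. Over all genes, the 302 of 9956 called for epithelium against ILF were 0 with DESeq2, 33 with limma-voom, 80 with the replicate block, 27 of 8950 without replicate 3, 0 of 8686 without replicate 4 and 1516 of 8738 without the 6 libraries. All members but Ubd and Anxa5 had fewer than 100 UMIs, and the biological coefficient of variation over all genes was 1.33; the part of depth and of this spread in the lack of calls was not tested.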
